A study of Mus musculus with 6 samples.

Results

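The genes described here are 10 of the 54532 in the deposited tables, chosen by symbol: the cytokine Tnf, its sheddase Adam17, its receptors Tnfrsf1a and Tnfrsf1b, the adaptors Traf1 and Traf2, the ubiquitin ligases Birc2 and Birc3, and the inhibitors Tnfaip3 and Tnip1. They were followed by bulk RNA sequencing in RAW264.7, a mouse macrophage-like cell line grown in DMEM with 5% FBS. In 3 libraries the cells carry the genotype label ERMAP Knockdown and the treatment label shRNA (short hairpin RNA, delivered by lentivirus). The 3 others are labelled WT and carry no treatment tag, and they are called control here. The protocol text names the ERMAP-shRNA lentivirus for all 6 samples, no label describes a non-targeting shRNA, and no label says whether replicates were separate cultures. The spread behind each p-value is thus that between libraries and may be technical.

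TNF is made by macrophages as a membrane-anchored protein, and ADAM17 cuts it free. TNFR1 (Tnfrsf1a), found on most cells, and TNFR2 (Tnfrsf1b), found mainly on immune and endothelial cells, then recruit TRAF2, which brings in the ubiquitin ligases cIAP1 (Birc2) and cIAP2 (Birc3) and so leads to NF-kB activation. NF-kB is known to switch on Tnf itself and several of the genes that restrain the signal, among them Tnfaip3, which encodes the ubiquitin-editing enzyme A20, and Birc3.

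The libraries held 13447021 to 16602734 counts each. All 10 genes were among the 12491 that passed the filter on low counts. The 8 macrophage markers (Adgre1, Csf1r, Itgam, Cd68, Lyz2, Ptprc, Fcgr1 and Spi1) summed to 3550 to 3610 FPKM (fragments scaled by gene length and library size) in ERMAP shRNA libraries and 3670 to 3850 FPKM in control libraries. Of 27 markers of other cell types in 7 lists, 17 had no count in any library, Cd3e, Epcam and Ly6g included, and no list summed to more than 0.274 FPKM in a library. Ermap itself, the gene the label says was knocked down, had 10, 21 and 14 counts in ERMAP shRNA libraries, against 12, 12 and 3 counts in control libraries. Its level was thus no lower under the ERMAP shRNA label (log2 fold change 0.81, SE 0.52, edgeR adjusted p = 0.929), and every direction given here is that of the labels. Control replicate 1 stood apart: mitochondrial transcripts took 3.69% of its counts, against 1.71% to 2.18% in the other 5 libraries. Its deviation from the mean of the other controls was more negative for GC-rich transcripts (Spearman rho = -0.754 over 11762 genes, which are not independent replicates). By the same measure rho was 0.685 and 0.592 in control replicates 2 and 3, whose comparison includes replicate 1. In ERMAP shRNA libraries it was 0.221, -0.441 and 0.315.

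The sequence just before the transcription start was available from RefSeq (GRCm38.p6, the assembly also called mm10) for all 10 genes, in 12 windows of 250 bases, of which 5 hold bases of an annotated exon of the gene and 1, of Birc2, lies wholly in exons. It is shown for Tnf, the member that passed the test between groups, and for Tnfaip3 and Tnip1, whose proteins act together as A20 and its binding partner ABIN1. Each is written 5′ to 3′ on the gene's own strand and ends at the base before the start. For Tnfaip3 only the last 137 bases are printed, because an exon of another annotated transcript of the gene lies just before them. Capitals mark matches on either strand to the NF-kB consensus or to TATAAA.
Tnf (chr17:35202008-35202257, minus strand): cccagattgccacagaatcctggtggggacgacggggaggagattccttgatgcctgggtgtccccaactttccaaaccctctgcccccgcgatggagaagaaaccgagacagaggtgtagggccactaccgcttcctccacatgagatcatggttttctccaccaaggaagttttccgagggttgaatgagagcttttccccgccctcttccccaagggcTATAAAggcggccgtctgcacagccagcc
Tnfaip3 (chr10:19015411.0-19015547.0, minus strand): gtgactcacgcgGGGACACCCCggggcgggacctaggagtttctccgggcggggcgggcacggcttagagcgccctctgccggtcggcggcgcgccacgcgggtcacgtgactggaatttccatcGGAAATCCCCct
Tnip1 (chr11:54962941-54963190, minus strand): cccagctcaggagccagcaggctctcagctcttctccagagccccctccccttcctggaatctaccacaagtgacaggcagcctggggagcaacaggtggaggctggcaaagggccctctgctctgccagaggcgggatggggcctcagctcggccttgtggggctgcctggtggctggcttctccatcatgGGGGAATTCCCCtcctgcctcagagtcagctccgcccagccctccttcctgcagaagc
In the Tnf window, TATAAA stood at positions -29 to -24 on the gene's strand, where -1 is the last base before the start. The Tnfaip3 window held NF-kB consensus matches at -125 to -116 and -12 to -3, and a TATAAA at -225 to -220, outside the stretch printed. A further RefSeq window of Tnfaip3, not printed, held neither motif. The Tnip1 window held a run of overlapping NF-kB matches from -58 to -47. The start used for Tnfaip3 lies 247 bases inside the gene as the deposited table bounds it, and that of Tnip1 lies 23 bases outside it. Counted over whole windows, exon or not, the NF-kB consensus was found for 2 of the 10 genes, Tnfaip3 and Tnip1. It was not found for the other genes, Tnf and Birc3 included. Of all 32851 RefSeq windows of this length, 7.25% held it. TATAAA was found for 2 of 10 genes, Tnf and Tnfaip3, and in 12.4% of windows. The spaced GAAA repeat of interferon-stimulated response elements, searched on both strands, was found for 1 gene, Tnfrsf1b, at -10 to -1, and in 2.98% of windows. A match is a run of letters only, and factor binding was not measured.

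Tnf rose in the libraries labelled ERMAP shRNA. Tnf (ENSMUSG00000024401, chr17:35199381-35202007, minus strand, protein-coding) had 43.6, 39.1 and 43.6 CPM (counts scaled to library size with TMM factors) in ERMAP shRNA libraries, against 29.1, 26.5 and 27.2 CPM in control libraries. All 3 ERMAP shRNA libraries lay above all 3 controls, and the gap between the groups was wider than the spread within either. The fold change was 1.52 (95% interval 1.29 to 1.81), or 0.61 on the log2 scale (SE 0.11, edgeR adjusted p = 0.041 over all 12491 genes). In bulk RNA, a change in the share of cells expressing Tnf and a change in RNA per cell cannot be told apart. Its underlying counts were 584, 587 and 655 in ERMAP shRNA libraries and 421, 440 and 412 in control libraries. The call depended on which libraries were kept. It held without control replicate 1 (edgeR adjusted p = 6.84e-05). It was lost without any other single library, in fits that all keep control replicate 1. Those gave edgeR adjusted p from 0.153 to 0.308 and log2 values from 0.58 to 0.65.

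Tnf was the only one of the 10 genes called at an adjusted p under 0.05 with all 6 libraries, and 0 were called lower. Among all tested genes 1.01% were called higher and 0.136% lower. DESeq2 also had 1 of the 10 higher and 0 lower, against 1.62% higher and 0.568% lower over all tested genes. With an unadjusted p under 0.05, edgeR had 5 of the 10 genes higher (Tnf, Birc3, Tnfaip3, Traf1 and Tnfrsf1b) and 0 lower, against 3.71% higher and 3.04% lower over all tested genes. In 6 of the 10, these 5 and Tnip1, all ERMAP shRNA libraries lay above all controls, which 7.74% of tested genes showed. The median log2 fold change of the 10 genes was 0.35, against -0.01 over all tested genes. These counts describe genes that were chosen with earlier results of these data known.

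**Figure D1:**
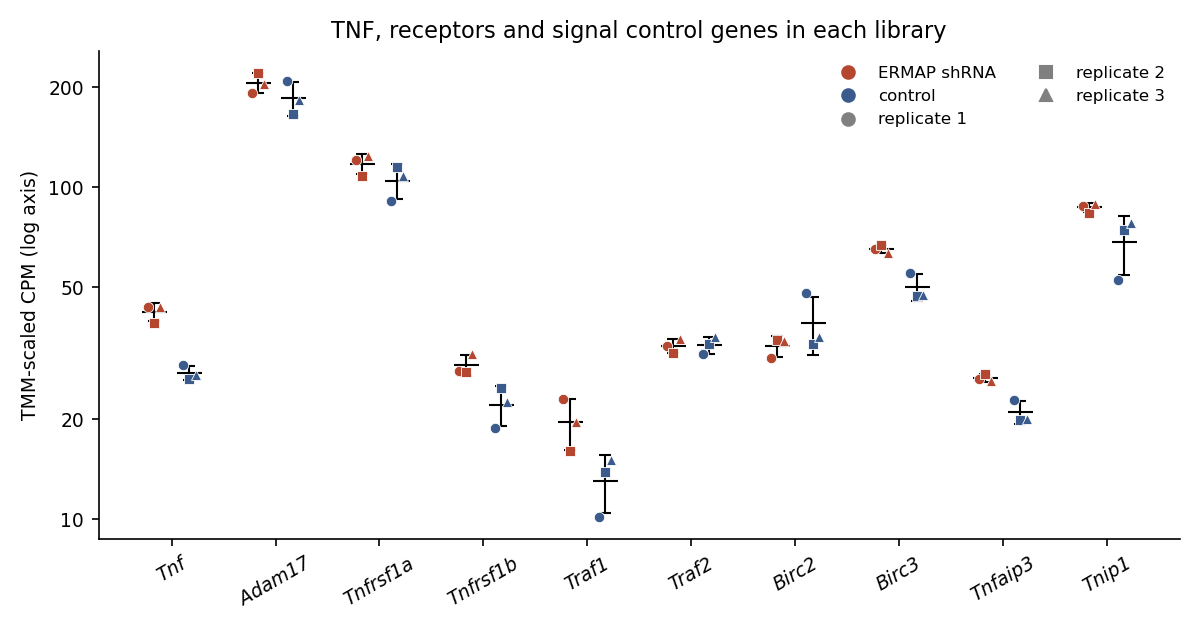
TMM-scaled CPM (log axis) of the 10 genes in each library, ERMAP shRNA in red and control in blue, with the replicate number as the symbol; bars are mean and SD over 3 libraries. Tnf separates (42.1 CPM in ERMAP shRNA and 27.6 CPM in control), Traf2 coincides (33.3 and 33.5 CPM), and control replicate 1 is the lowest library for Tnip1 and Traf1 and the highest for Birc2.

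Adam17, the protease that sheds TNF and both of its receptors, had the most reads of the 10. It had 192.8, 221.1 and 204.6 CPM in ERMAP shRNA libraries, against 209.7, 165.8 and 182.9 CPM in control libraries. The groups overlapped, since control replicate 1 was the second highest library of all, and the log2 fold change was 0.15 (SE 0.11, edgeR adjusted p = 0.937). The 95% interval of the fold was 0.924 to 1.33. The log2 value was 0.24 without control replicate 1 (adjusted p = 0.0587), 0.07 without control replicate 2 and 0.09 without ERMAP shRNA replicate 2. Adam17 (chr12:21323509-21373632, minus strand) overlaps Iah1 on the other strand, which had 2505 counts over the 6 libraries against 17535 for Adam17. Whether reads were counted by strand is not given in the sources used here, so reads of both genes may be mixed.

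Tnfrsf1a (ENSMUSG00000030341, chr6:125349362-125362484, plus strand), whose protein carries a death domain, averaged 45.2 ± 3.14 FPKM in ERMAP shRNA and 40.1 ± 4.91 FPKM in control (SD, n = 3 each). Its CPM were 120.5, 108.5 and 124.4 in ERMAP shRNA libraries and 90.9, 115.3 and 108.1 in control libraries. The groups overlapped, with control replicate 1 the lowest, and the log2 fold change was 0.17 (SE 0.12, edgeR adjusted p = 0.937), or 0.07 without that library (adjusted p = 0.712). Tnfrsf1b (ENSMUSG00000028599, chr4:145213463-145246870, minus strand), whose protein has no death domain and responds best to membrane-bound TNF, averaged 7.58 ± 0.555 FPKM in ERMAP shRNA and 5.75 ± 0.808 FPKM in control (SD, n = 3 each). It had 27.9, 27.9 and 31.5 CPM in ERMAP shRNA libraries and 18.9, 24.9 and 22.7 CPM in control libraries. The groups did not overlap, but the log2 fold change of 0.39 (SE 0.14) did not pass the test (edgeR adjusted p = 0.493). It came to 0.28 without control replicate 1, the lowest library (adjusted p = 0.138). Per length, Tnfrsf1b stood at 0.157, 0.174 and 0.172 of the Tnfrsf1a FPKM in ERMAP shRNA libraries, against 0.141, 0.147 and 0.142 in control libraries.

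Traf1 and Traf2 encode adaptors that can join in a mixed trimer, in which TRAF2 brings the RING domain that TRAF1 lacks. Traf1 (chr2:34941750-34961772) was the lowest of the 10 genes per length, with 2.59, 1.82 and 2.22 FPKM in ERMAP shRNA libraries, against 1.14, 1.56 and 1.70 FPKM in control libraries. The groups did not overlap, though the highest control and the lowest ERMAP shRNA library lay close together. Its log2 fold change of 0.58 was close to that of Tnf, but with a wider error (SE 0.20, 95% interval 0.13 to 1.04, edgeR adjusted p = 0.46). Control replicate 1 was the lowest library for Traf1, and the log2 value without it was 0.43 (adjusted p = 0.0881). Traf2 (chr2:25517982-25546940) had 6.47, 6.17 and 6.81 FPKM in ERMAP shRNA libraries, against 6.07, 6.55 and 6.89 FPKM in control libraries. Its ranges nearly coincided, and its fold change of 0.993 had a 95% interval of 0.839 to 1.18 (edgeR adjusted p = 0.993).

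Birc2 and Birc3 encode the closely related ubiquitin ligases cIAP1 and cIAP2 and lie side by side on the minus strand of chromosome 9, 11634 bases apart (chr9:7818227-7837064 and chr9:7848699-7873186). Birc3, whose transcription NF-kB is known to raise, had 65.4, 66.9 and 63.3 CPM in ERMAP shRNA libraries, against 55.4, 47.1 and 47.5 CPM in control libraries. The groups did not overlap, and control replicate 1 was the highest control. The log2 fold change was 0.38 (SE 0.10, edgeR adjusted p = 0.252), and without control replicate 1 it was 0.46 and passed (adjusted p = 0.000455). With offsets for GC content it was 0.39 and passed as well (adjusted p = 0.00769). Birc2 had 30.6, 34.8 and 34.5 CPM in ERMAP shRNA libraries, against 47.9, 33.8 and 35.5 CPM in control libraries. Control replicate 1 was far above every other library, and the log2 fold change was -0.23 (SE 0.15, edgeR adjusted p = 0.937) with it and -0.06 (adjusted p = 0.813) without it. How reads shared by these related genes were assigned is not given in the sources used here.

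Tnfaip3 (chr10:19000910-19015657, minus strand), which encodes A20, had 26.4, 27.4 and 26.1 CPM in ERMAP shRNA libraries, against 23.0, 19.99 and 20.1 CPM in control libraries. The 3 ERMAP shRNA libraries lay close together and above every control. The log2 fold change of 0.34 (SE 0.11) did not pass with all libraries (edgeR adjusted p = 0.441), while 0.41 without control replicate 1, the highest control, did (adjusted p = 0.02). It did not pass without any other single library (edgeR adjusted p of 0.596 or more). Tnip1 (chr11:54910785-54962917, minus strand), which encodes ABIN1, the ubiquitin-binding partner of A20, had 88.1, 84.0 and 89.0 CPM in ERMAP shRNA libraries, against 52.6, 74.4 and 78.1 CPM in control libraries. The groups did not overlap, and control replicate 1 was far below the other controls. Its log2 fold change was 0.35 (SE 0.15, edgeR adjusted p = 0.745), and 0.19 without that library (adjusted p = 0.172). These are the 2 genes with the NF-kB consensus in the sequences printed above, and whether the matches bear on their levels was not tested.

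Leaving out control replicate 1 thus left 3 of the 10 genes called higher (Tnf, Birc3 and Tnfaip3) and 0 lower, where 2.67% of all genes tested were called higher and 2.19% lower. In that fit 7 of the 10 were higher with an unadjusted p under 0.05 and 0 lower, against 7.81% higher and 8.54% lower over all genes. DESeq2 was not run without that library. Leaving out any other single library instead gave 0 of the 10 called, higher or lower. Those fits called 73 to 96 of all genes higher and 3 to 11 lower. With GC offsets 2 of the 10 were called higher, Tnf and Birc3, and 0 lower, against 1.98% and 1.41% of tested genes. What set control replicate 1 apart was not tested.

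**Figure D2:**
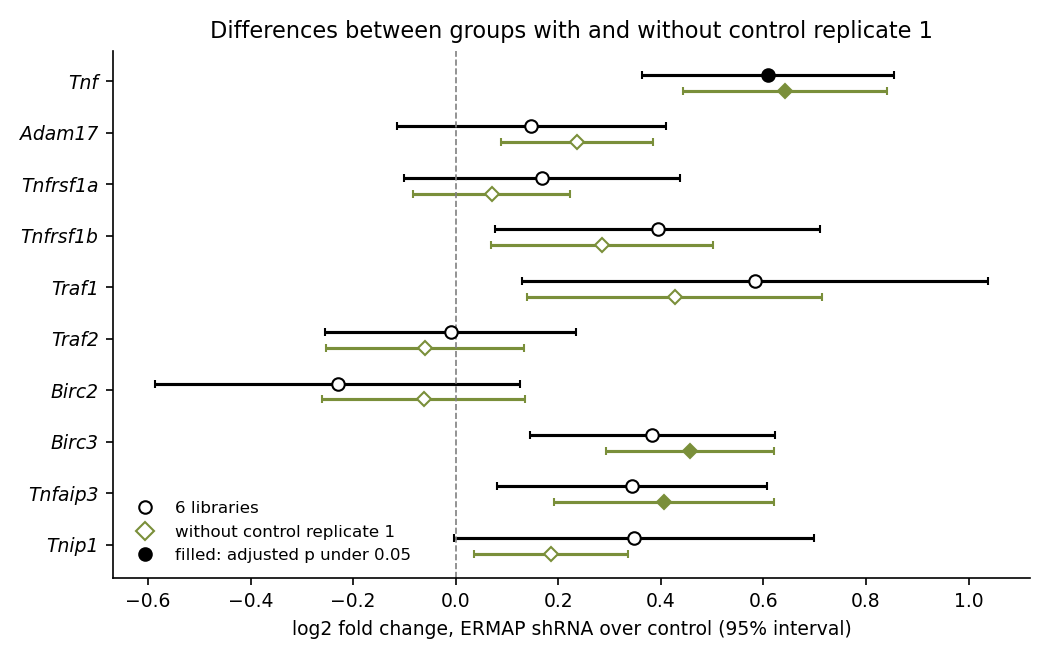
Log2 fold change of ERMAP shRNA over control with its 95% interval for the 10 genes, with all 6 libraries (circles) and without control replicate 1 (diamonds); filled symbols have an edgeR adjusted p under 0.05. Tnf is filled in both fits (0.61 and 0.64), Birc3 and Tnfaip3 only in the fit without control replicate 1 (0.46 and 0.41), and the value of Birc2 lies near 0 in that fit (-0.06).

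Per length, the order of levels in ERMAP shRNA libraries was Tnfrsf1a, Adam17, Tnf, Tnip1, Birc3, Tnfrsf1b, Birc2, Traf2, Tnfaip3 and Traf1, from 45.2 to 2.21 mean FPKM. The ranges over 3 libraries overlapped between the neighbours Tnf and Tnip1, Tnfrsf1b and Birc2, and Birc2 and Traf2, and not between the other neighbours. In control libraries the order was Tnfrsf1a, Adam17, Tnip1, Tnf, Birc3, Birc2, Traf2, Tnfrsf1b, Tnfaip3 and Traf1, from 40.1 to 1.47 mean FPKM. There the ranges overlapped between Tnip1 and Tnf, Birc3 and Birc2, and Traf2 and Tnfrsf1b. The mRNA of the receptor TNFR1 was therefore the most abundant of the set in both groups, and that of the inhibitor A20 was among the lowest. Summed over the 10 genes, FPKM came to 163.4, 159.8 and 168.7 in ERMAP shRNA libraries and 132.2, 138.0 and 139.7 in control libraries.

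A ratio of FPKM within a library does not depend on its depth, and 4 such ratios were compared with an exact two-sided permutation test, which with 3 against 3 libraries cannot give a p below 0.1. Birc3 over Birc2 was 1.96, 1.76 and 1.68 in ERMAP shRNA libraries, against 1.06, 1.27 and 1.23 in control libraries. Traf1 over Traf2 was 0.399, 0.295 and 0.326 in ERMAP shRNA libraries, against 0.187, 0.238 and 0.247 in control libraries. Both ratios were higher in all 3 ERMAP shRNA libraries than in any control, by 0.60 on the log2 scale in each case. Tnfrsf1b over Tnfrsf1a, given above, was higher by 0.23. Tnfaip3 over Tnf, the inhibitor set against the ligand, was 0.137, 0.159 and 0.136 in ERMAP shRNA libraries and 0.179, 0.171 and 0.167 in control libraries, a log2 difference of -0.26. None of the 4 ratios overlapped between groups. Each had the smallest p this design allows (exact permutation p = 0.1, 0.1 after Benjamini-Hochberg adjustment over the 4), so none can pass a threshold of 0.05. Every pair holds a gene that itself did not overlap (Birc3, Traf1, Tnfrsf1b, or both Tnfaip3 and Tnf). The ratios are therefore not separate from the results of the single genes. How often ratios of other gene pairs lie apart was not counted.

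**Figure D3:**
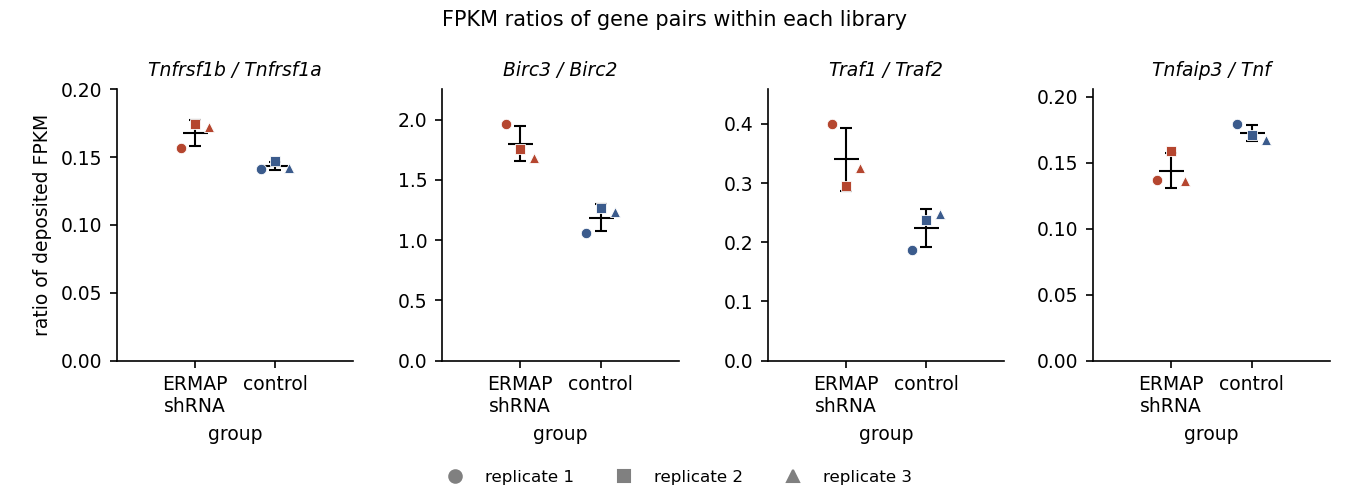
Ratio of deposited FPKM between the genes of 4 pairs in each library, ERMAP shRNA left of control, with mean and SD over 3 libraries; each axis starts at 0. Birc3 over Birc2 averaged 1.80 in ERMAP shRNA and 1.19 in control, Traf1 over Traf2 0.34 and 0.224, Tnfrsf1b over Tnfrsf1a 0.168 and 0.143, and Tnfaip3 over Tnf 0.144 and 0.172.

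Around these genes, a list of 85 other genes of the TNF pathway and family was examined, of which 64 passed the filter. EdgeR called 2 higher, Zfp36l1 and Cd40, and 0 lower, and the unadjusted p was under 0.05 for 9 higher and 2 lower genes. Over all tested genes these shares were 1.01% and 0.136%, and 3.71% and 3.04% unadjusted. DESeq2 called 3 higher, these and Tnfsf8, and 0 lower, against 1.62% and 0.568% of all tested genes. Cd40 and Tnfsf8 passed the filter only with the ERMAP shRNA libraries, where they are high. Counts that include them, here and below, are therefore description only and not a result about the list. The median log2 fold change of the 64 was 0.03. Without control replicate 1, 6 were called higher (Zfp36l1, Cd40, Rnf31, Tnip3, Ltb and Tnfsf8) and 2 lower (Rhbdf1 and Tab1), where 2.67% and 2.19% of all genes were called. Without any other single library edgeR called only Cd40. Genes of this list that neither passed with all libraries nor were the most abundant of their subgroup are named because of their values.

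In the subgroup that controls TNF shedding and mRNA, 11 of 12 genes were tested and Zfp36l1 rose. It belongs to the tristetraprolin family, whose proteins bind AU-rich elements in mRNAs and speed their decay. Zfp36l1 had 5.23, 6.63 and 6.67 FPKM in ERMAP shRNA libraries, against 1.37, 2.72 and 2.55 FPKM in control libraries. The groups were far apart, with control replicate 1 the lowest (log2 fold change 1.47, SE 0.25, edgeR adjusted p = 0.04). It was 1.22 without control replicate 1 (adjusted p = 3.38e-06), and the call was lost without any other single library (adjusted p from 0.0604 to 0.219). Its relative Zfp36l2, the most abundant of the subgroup, averaged 69.0 ± 1.46 FPKM in ERMAP shRNA and 63.6 ± 10.8 FPKM in control (SD, n = 3 each, edgeR adjusted p = 0.938), and its log2 fold change was 0.11, or -0.02 without control replicate 1. Rhbdf2 and Rhbdf1 encode the iRhom proteins that carry ADAM17 to the cell surface. Rhbdf2 averaged 9.99 ± 0.728 FPKM in ERMAP shRNA and 7.71 ± 1.37 FPKM in control, and Rhbdf1 1.02 ± 0.126 FPKM in ERMAP shRNA and 1.52 ± 0.481 FPKM in control (SD, n = 3 each). Their log2 fold changes of 0.37 and -0.58 did not pass with all libraries (edgeR adjusted p = 0.644 and 0.736), and those without control replicate 1 were 0.225 for Rhbdf2 (adjusted p = 0.159) and -0.79 for Rhbdf1 (adjusted p = 0.00959). Rhbdf1 came to -0.33 without control replicate 3 (adjusted p = 0.818).

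All 16 genes of the receptor-bound complex and its ubiquitin machinery were tested, and 0 were called by edgeR or DESeq2. The edgeR unadjusted p was under 0.05 for 1 gene, against 3.71% higher and 3.04% lower over all tested genes. That gene was Rnf31, the catalytic subunit of the linear ubiquitin ligase LUBAC, with 6.97, 7.51 and 7.06 FPKM in ERMAP shRNA libraries and 4.59, 5.60 and 5.65 FPKM in control libraries. Its groups did not overlap (log2 fold change 0.44, SE 0.12, edgeR adjusted p = 0.247, and 0.34 with adjusted p = 0.0255 without control replicate 1). With GC offsets and all libraries the Rnf31 value was 0.386 (edgeR adjusted p = 0.0306). Otulin, which removes linear ubiquitin chains and was the most abundant of the subgroup, had a log2 fold change of -0.03 (95% interval -0.25 to 0.20). Tab1, a partner of the kinase TAK1, averaged 11.3 ± 0.69 FPKM in ERMAP shRNA and 13.3 ± 1.94 FPKM in control (SD, n = 3 each, edgeR adjusted p = 0.893), a log2 fold change of -0.24, or -0.36 without control replicate 1 (adjusted p = 0.0139).

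The A20-related inhibitors (8 tested), the noncanonical arm (4), the cell death arm (7) and the other TRAF genes (4) held 0 called genes in edgeR and DESeq2. The edgeR unadjusted p was under 0.05 for 1 gene, Relb, against 3.71% higher and 3.04% lower over all tested genes. Relb encodes the RelB partner of p52. Relb had 4.08, 3.45 and 4.09 FPKM in ERMAP shRNA libraries, against 2.11, 2.83 and 3.33 FPKM in control libraries. Its groups did not overlap, with control replicate 1 the lowest (log2 fold change 0.49, SE 0.19, edgeR adjusted p = 0.604), and the log2 value was 0.32 without that library (adjusted p = 0.231). Tnip3, a relative of Tnip1, averaged 9.98 ± 0.847 FPKM in ERMAP shRNA and 7.86 ± 1.67 FPKM in control (SD, n = 3 each). Control replicate 1, at 9.78 FPKM, lay within the ERMAP shRNA range, and the log2 value was 0.34 with it (edgeR adjusted p = 0.78) and 0.53 without it (adjusted p = 6.17e-05). With GC offsets and all libraries the Tnip3 value was 0.525 (edgeR adjusted p = 0.00252). Tax1bp1, an A20 adaptor and the most abundant of the inhibitors, had a log2 fold change of -0.25 (SE 0.14, edgeR adjusted p = 0.906), or -0.08 without control replicate 1, its highest library (adjusted p = 0.628). Nfkb2, the precursor of the p52 subunit of NF-kB, averaged 16.9 ± 1.38 FPKM in ERMAP shRNA and 12.3 ± 3.55 FPKM in control (SD, n = 3 each, log2 fold change 0.45, edgeR adjusted p = 0.777), with control replicate 1 the lowest library. Its log2 value was 0.23 without that library (adjusted p = 0.159), 0.37 with GC offsets (adjusted p = 0.0209) and 0.37 with GC offsets and the replicate number as a block (adjusted p = 0.0849). The most abundant genes of the cell death arm and of the other TRAF genes were Ripk3, a necroptosis kinase, at 0.03 (SE 0.11), and Traf7 at 0.05 (SE 0.09), both on the log2 fold change scale.

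Among the other TNF superfamily ligands, 6 of 16 passed the filter, and 0 were called by edgeR, while DESeq2 called Tnfsf8. The edgeR unadjusted p was under 0.05 for 3, all higher (Tnfsf9, Ltb and Tnfsf8), against 3.71% higher and 3.04% lower over all tested genes. Tnfsf9, the ligand of 4-1BB and the most abundant, had 36.4, 36.4 and 39.4 FPKM in ERMAP shRNA libraries, against 28.4, 31.5 and 32.3 FPKM in control libraries (log2 fold change 0.28, SE 0.10, edgeR adjusted p = 0.541). Ltb, the lymphotoxin subunit encoded close to Tnf, averaged 21.9 ± 3.09 FPKM in ERMAP shRNA and 12.3 ± 5.24 FPKM in control (SD, n = 3 each). Control replicate 1 had the lowest Ltb level of the 6 libraries, 6.80 FPKM, and the log2 fold change was 0.82 with it (edgeR adjusted p = 0.538) and 0.52 without it (adjusted p = 0.0209). With GC offsets and all libraries the Ltb value was 0.758 (edgeR adjusted p = 0.0106). Tnfsf8 rests on 111 counts in all, 23, 39 and 24 in ERMAP shRNA libraries and 10, 10 and 5 in control libraries (log2 fold change 1.85, SE 0.38, edgeR adjusted p = 0.0898, DESeq2 adjusted p = 0.0151). Its control counts stood at or below the filter's minimum count of 10, so it passed the filter only with the ERMAP shRNA libraries.

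Of the other TNF superfamily receptors, 8 of 18 passed the filter. The edgeR unadjusted p was under 0.05 for 2 higher genes, Cd40 included, and 1 lower, against 3.71% and 3.04% over all tested genes. Cd40 rose, with 66, 84 and 47 counts in ERMAP shRNA libraries against 10, 12 and 9 in control libraries. CD40 is a receptor for T cell help that signals through TRAF proteins. The control counts of Cd40 lay near the filter's minimum count of 10, so it passed the filter only with the ERMAP shRNA libraries. The fold change was 6.71 (95% interval 4.04 to 11.2, edgeR adjusted p = 0.00503), with mean levels of 1.33 FPKM in ERMAP shRNA and 0.195 FPKM in control, and the call held without each single library in turn (adjusted p from 1.01e-05 to 0.0418). Ltbr, the lymphotoxin beta receptor and the most abundant of the subgroup, averaged 27.0 ± 0.675 FPKM in ERMAP shRNA and 24.6 ± 3.19 FPKM in control (SD, n = 3 each, log2 fold change 0.13, edgeR adjusted p = 0.937), and the log2 value was 0.025 without control replicate 1.

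**Figure D4:**
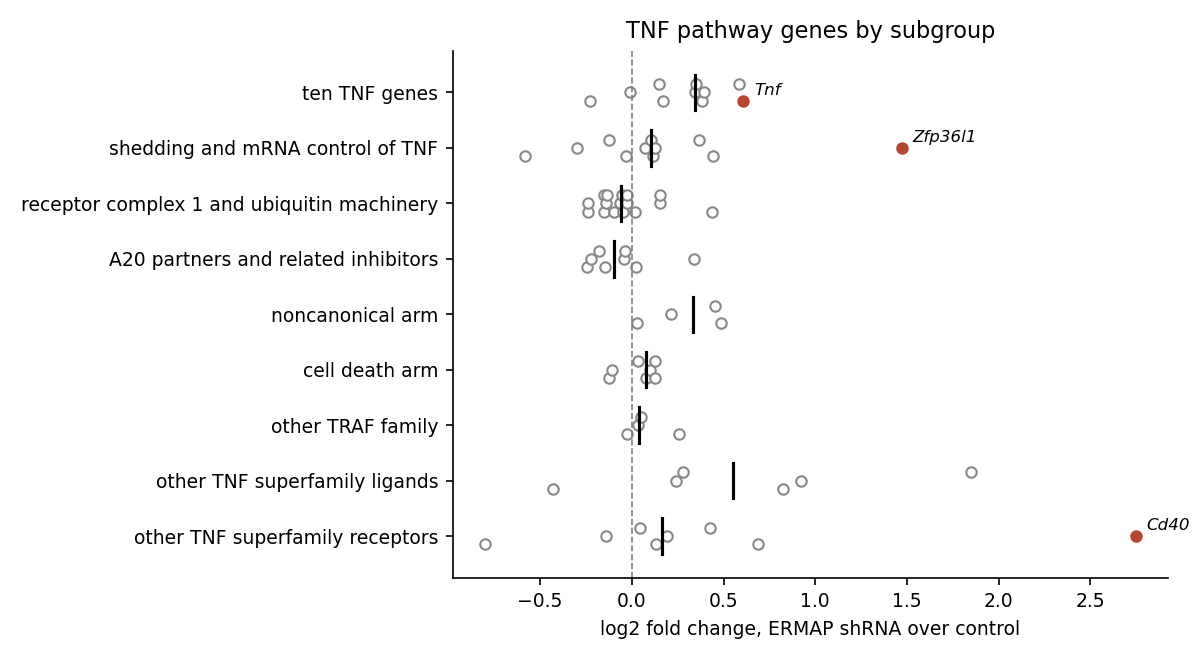
Log2 fold change of ERMAP shRNA over control for the 10 TNF genes (top row) and for 64 tested pathway genes in 8 subgroups; each circle is a gene, the vertical bar is the row's median, and red filled circles have an edgeR adjusted p under 0.05. Filled circles are Tnf (0.61), Zfp36l1 (1.47) and Cd40 (2.75), and most genes of the receptor complex lie close to 0.

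The genes whose levels ran most like Tnf over the 6 libraries were Prkce, Slfn2, Zfp516, Bhlhe41 and Ube2f. Their Pearson r with Tnf, on log2 CPM among 9373 protein-coding genes with a mean of at least 5 CPM, was 0.9947, 0.9887, 0.9886, 0.9883 and 0.9864. With 6 libraries in 2 groups, these values carry the difference between groups, and genes taken from the top of so many candidates are high by selection. Prkce, a protein kinase C, averaged 7.35 ± 0.328 CPM in ERMAP shRNA and 4.59 ± 0.126 CPM in control (SD, n = 3 each, log2 fold change 0.68, edgeR adjusted p = 0.132). Slfn2, Zfp516 and Bhlhe41 were called higher, with log2 fold changes of 1.70, 1.11 and 0.69, and Ube2f was not (0.19, edgeR adjusted p = 0.8). Slfn2 kept its call in all 17 alternatives run, while Zfp516 lost it in 8 and Bhlhe41 in 6, among them the 5 fits that leave out 1 library and keep control replicate 1 (edgeR adjusted p up to 0.212 and 0.232). Reads of Slfn2 may be shared with other Schlafen genes.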

How the data were processed

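The data are bulk RNA sequencing of RAW264.7 cells, with 3 libraries labelled ERMAP shRNA and 3 control libraries. The authors deposited whole-number counts per gene and FPKM per library, with a mean FPKM per group. The submitters' processing notes name HISAT2 and mm10, and the labels' protocols a NEBNext Ultra RNA kit. What counted the reads, with which strand setting and annotation, is not given in the sources used here. A check showed that the deposited FPKM equal count over the deposited gene length (in bases) and over 1 constant per library, within a relative tolerance of 0.001 for genes with at least 50 counts. Column names give the group and a number. The numbers could not be tied to single samples, and they name the replicates here.

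The main test was edgeR's quasi-likelihood fit (edgeR 4.0.16, R 4.3.3) on TMM-scaled counts, robust, after filterByExpr with a minimum count of 10. It was first tested on simulated data. The simulation gave no library a shift of its own like that of control replicate 1, so it does not cover such a library. P-values were adjusted by Benjamini-Hochberg over 12491 genes, and called means an adjusted p under 0.05. Promoter windows and motif matches came from the RefSeq table of GRCm38.p6. GC content came from the longest GENCODE vM21 transcript of each gene, and GC offsets were loess fits per library. Alternatives were DESeq2 1.42.0, limma 3.58.1 on log2(FPKM + 0.1) and other log scales, other scaling factors and filters, GC offsets, the replicate number as a block, and fits without each library in turn. No replicate pair within a group agreed within sampling noise (chi-square per degree of freedom from 3.35 to 67.2).

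The 10 genes and the lists were chosen with earlier results of these data known. Named are Ermap, the 10 genes, the called and the most abundant tested gene of each pathway subgroup, the 5 genes most correlated with Tnf, and 8 genes picked after their values were seen.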

Additional observations from a re-analysis of the deposited data

How the results depend on the processing

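Of 34 named genes, all but 5 kept their direction in every alternative that gave a value. These 5 had values near 0, and 11 of the 577 alternative values in all changed sign. They were Traf2 (0.0201 without ERMAP shRNA replicate 2 and 0.0339 without control replicate 3), Zfp36l2 (-0.0211 without control replicate 1), Otulin (0.032 without control replicate 2), Ripk3 (-0.0412 with GC offsets, -0.0407 with the replicate block and GC offsets, -0.00932 without ERMAP shRNA replicate 2, -0.0278 without control replicate 1) and Traf7 (-0.0208 with GC offsets, -0.0197 with the replicate block and GC offsets, -0.0109 without control replicate 1). Over the fits that leave out 1 library, these genes ranged from -0.0592 to 0.0339 (Traf2), -0.0211 to 0.212 (Zfp36l2), -0.0749 to 0.032 (Otulin), -0.0278 to 0.115 (Ripk3) and -0.0109 to 0.109 (Traf7). Against 126 genes higher and 17 lower over all tested genes, DESeq2 gave 202 and 71, GC offsets 247 and 176, the replicate block 81 and 3, and leaving out 1 library 73 to 342 and 3 to 280, with 342 and 280 without control replicate 1 and 73 and 3 without ERMAP shRNA replicate 3. No filter on low counts gave 32 lower, and the replicate block with GC offsets 91 lower. Against 1 of the 10 TNF genes higher, GC offsets gave 2, with or without the replicate block, the replicate block alone 0, and leaving out 1 library 0 to 3. Against 2 pathway genes higher, log2(FPKM + 0.1) gave 1 (Cd40), GC offsets 7, GC offsets with the replicate block 5, and leaving out 1 library 1 to 6. The 7 with GC offsets were Zfp36l1, Cd40, Tnip3, Nfkb2, Rnf31, Ltb and Tnfsf8. Adding the replicate block to the GC offsets lost Nfkb2 and Rnf31. Leaving out 1 library gave 0 to 2 pathway genes lower. The common dispersion was 0.0233 with all libraries, 0.0045 without control replicate 1 and 0.00936 with GC offsets, and the cause of these changes was not tested. The replicate numbers were not found to pair the samples: same-numbered libraries had correlations of -0.123, -0.262 and 0.165 in their deviations from the group means. The replicate block gave Tnf 0.61 on the log2 scale with an adjusted p of 0.231. The 4 ratios kept their direction in each of their alternatives, with log2 differences of 0.177 to 0.274 (Tnfrsf1b over Tnfrsf1a), 0.523 to 0.656 (Birc3 over Birc2), 0.382 to 0.697 (Traf1 over Traf2, lowest with 1 added to FPKM) and -0.336 to -0.221 (Tnfaip3 over Tnf). Other scaling factors moved the median log2 fold change of all genes by under 0.1. Low counts limit Ermap (72 counts in all) and Tnfsf8 (111).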
